A study of Mus musculus with 4 samples.

Results

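The genes described here are 35 that carry cells through G2 and mitosis, from the cyclins that open mitosis to the proteins that cut the daughter cells apart. They were taken by symbol from a list of known mitotic genes, whose rule uses no measured value although it was drawn up with earlier results of these data known, out of 53647 genes in the count tables. All 35 were found, and all 35 passed the filter on low counts, the lowest count of any of them in a library being 540.

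The cells were 4T1, a line from a mouse mammary carcinoma that the labels give as wild type, and RNA sequencing reads were counted per gene. The 2 Mock libraries came from cells given mRNA for the fluorescent protein EGFP, and the 2 uniSTING libraries from cells given uniSTING mRNA, which encodes a protein engineered to act like STING, an adaptor of innate immunity, so both groups received an mRNA. The mRNA was carried by the TransIT-mRNA transfection reagent or by SS-OP lipid nanoparticles, and the sources used here do not say which carrier, dose or time belongs to which library. All 4 libraries are of a single cell line, and the labels number the libraries of a group as preparations 1 and 2 without saying whether these were separate cultures, so the p-values rest on differences between libraries that may be technical repeats.

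Mock replicates 1 and 2 held 17502694 and 22039546 counts, and uniSTING replicates 1 and 2 held 18843543 and 25071840. Libraries of a group were close: the variance between them was 1.46 (Mock) and 1.50 (uniSTING) times that of counting alone for genes of at least 50 counts, against 14.6 to 17.8 times between groups. Markers of carcinoma epithelium (5 of 5 detected: Krt8, Krt18, Krt14, Epcam and Cdh1) summed to between 3572 and 3638 CPM (counts scaled to a common library size) in the 4 libraries. Markers of other cell types were low: fibroblast markers (5 of 5 detected) summed to between 7.92 and 11.8 CPM and endothelial markers (4 of 4 detected) to between 0.226 and 1.87 CPM. The leukocyte markers Ptprc, Cd3e, Lyz2, Cd68 and Adgre1 summed, with Itgam at 0 in every library, to 17.7 and 6.43 CPM in Mock replicates 1 and 2 and to 27.3 and 10.4 CPM in uniSTING replicates 1 and 2, and their part in the results below was not tested.

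Entry into mitosis is driven by the kinase Cdk1 with A- and B-type cyclins, switched on by Cdc25 phosphatases and amplified by the Polo and Aurora kinases. Chromosomes are then condensed, attached through kinetochores to spindle microtubules that kinesin motors slide and shorten, and held under the spindle checkpoint until the anaphase-promoting complex (APC/C) marks cyclin B and securin for destruction. Most of these genes are transcribed in the same window of the cell cycle, and in tumours their summed level is widely read as a measure of proliferation. Their promoters are known for 2 short sequences, the cell cycle genes homology region (CHR, TTTGAA or the variant TTCGAA), bound by the DREAM and MYB-MuvB complexes, and the CCAAT box, bound by NF-Y.

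These letters were common in the promoters of the listed genes. Windows of 300 bases (250 before and 50 after a start site) were read from the RefSeq table of GRCm38.p6, which held 30 of the 35 genes (not Ccna2, Cdc25c, Aurkb, Kif20a or Tpx2), and both strands were searched. TTTGAA was in a window of 23 of the 30 genes (76.7%), against 20.2% of 27025 genes in the table and 14.1% of 9254 genes tested here. TTCGAA was in 3 of the 30. CCAAT was in 23 of the 30 (76.7%), against 41.1% of all genes and 43.2% of genes tested, and 17 of the 30 (56.7%) held it more than once, against 13.3% and 17.0%. A CHR sequence of either spelling together with CCAAT was in 21 of the 30 (70.0%), against 8.61% of all genes and 6.76% of genes tested. A match is a run of letters and not evidence that a factor binds there.

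Shown here are the 150 bases directly before the start site of 6 of the genes, on the strand of the gene, 5′ to 3′. Capitals mark the CHR letters (TTTGAA, or TTCAAA where the match is on the other strand) and the CCAAT box (CCAAT, or ATTGG on the other strand). Mki67, Cdk1, Cdc20 and Ube2c were chosen because they hold both kinds of match and yet lay at different places in the comparison. Their places ran from the largest fall, through no call, to a small rise that passed. Nuf2 and Mad2l1 were chosen after their values were seen, because they had the largest rises and held neither. The GRCm38.p6 positions are chr7:135716380-135716529 (minus strand) for Mki67, chr10:69352913-69353062 (minus) for Cdk1, chr4:118437344-118437493 (minus) for Cdc20, chr2:164769779-164769928 (plus) for Ube2c, chr1:169531465-169531614 (minus) for Nuf2 and chr6:66535071-66535220 (plus) for Mad2l1.
Mki67: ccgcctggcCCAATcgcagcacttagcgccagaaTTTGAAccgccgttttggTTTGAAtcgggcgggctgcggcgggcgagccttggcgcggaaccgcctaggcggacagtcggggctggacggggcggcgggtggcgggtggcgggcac
Cdk1: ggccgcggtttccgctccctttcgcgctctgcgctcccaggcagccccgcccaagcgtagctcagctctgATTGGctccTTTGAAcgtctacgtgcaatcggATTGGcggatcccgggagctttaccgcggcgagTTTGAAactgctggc
Cdc20: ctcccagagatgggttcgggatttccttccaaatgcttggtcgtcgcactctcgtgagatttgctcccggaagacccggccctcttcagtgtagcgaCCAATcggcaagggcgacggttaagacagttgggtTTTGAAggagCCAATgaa
Ube2c: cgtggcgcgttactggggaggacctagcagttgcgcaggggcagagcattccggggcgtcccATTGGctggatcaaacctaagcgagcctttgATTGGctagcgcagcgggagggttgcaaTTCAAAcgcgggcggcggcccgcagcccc
Nuf2: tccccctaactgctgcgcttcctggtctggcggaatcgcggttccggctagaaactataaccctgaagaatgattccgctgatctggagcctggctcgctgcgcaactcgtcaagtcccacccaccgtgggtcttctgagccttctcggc
Mad2l1: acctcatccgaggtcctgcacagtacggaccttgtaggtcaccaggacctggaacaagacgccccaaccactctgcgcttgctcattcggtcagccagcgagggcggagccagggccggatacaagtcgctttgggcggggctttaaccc

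**Figure D1:**
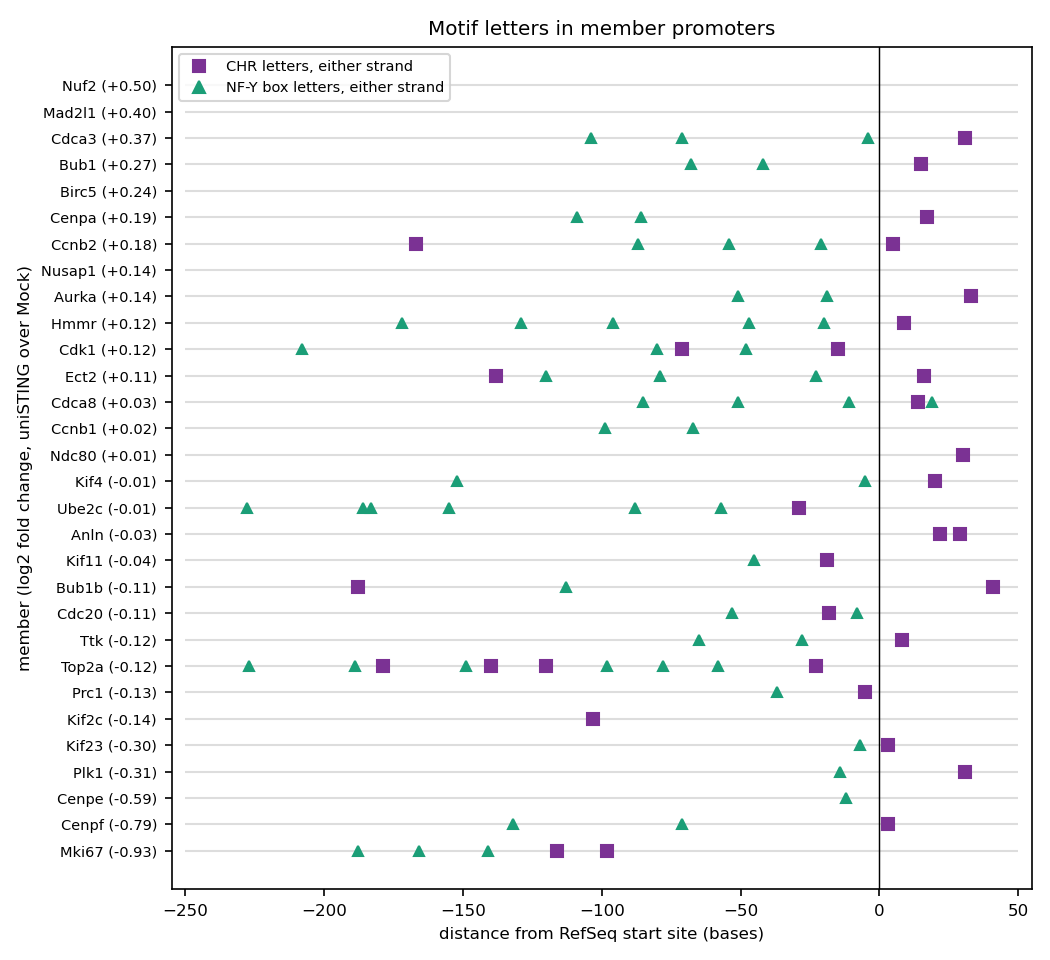
Positions of CHR letters (TTTGAA or TTCGAA, squares) and CCAAT letters (triangles) on either strand in the promoter windows of the 30 matched genes; the horizontal axis is the distance in bases from the RefSeq start site, and each row is labelled with the log2 fold change of uniSTING over Mock. Genes with both kinds of letters run from Mki67 at -0.93 to Cdca3 at 0.37, and the rows of Nuf2, Mad2l1, Birc5 and Nusap1 are empty.

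The comparison of uniSTING with Mock asks how the delivered uniSTING mRNA changed transcript levels. The mitotic genes did not move in 1 direction. By edgeR's quasi-likelihood test at an adjusted p under 0.05, 14 of the 35 were higher in uniSTING (40.0%), against 24.9% of all 12972 genes tested, and 11 were lower (31.4%), against 25.4%. The other 10 did not pass. The split was 15 higher and 7 lower once a trend of counts with coding length was removed, and 8 higher and 12 lower once trends with exon length and GC content were. A call says little by itself here, because 50.2% of all genes tested passed in either direction. Of the 5974 tested genes within the range of levels of the mitotic genes 68.9% passed, 30.0% as higher and 38.9% as lower, beside 71.4% of the mitotic genes. The 5974 genes share only the range, with a median Mock level of 78.0 CPM beside 163 CPM for the mitotic genes. Against genes within that range, then, the share of mitotic genes that passed was near the background. More of the mitotic genes were higher and fewer lower, a difference that was not tested. Both uniSTING libraries lay above both Mock libraries for 16 genes and below for 16, together 91.4% of the 35. Among all genes tested these shares were 37.8% above and 37.3% below, together 75.1%, and among the tested genes of such levels 38.2% and 47.3%, together 85.5%. The exceptions were Ccnb1, Ube2c and Kif4, whose groups overlapped.

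Most of the changes were small. A change of at least 1.25-fold that passed the test was seen for 6 of the 35 (17.1%), against 26.0% of all genes tested and 25.8% of those within the same range of levels. Mki67, Cenpf and Cenpe were the 3 that fell and Nuf2, Mad2l1 and Cdca3 the 3 that rose, and the other 29 lay between 1.00-fold and 1.24-fold in either direction. The median log2 fold change of the 35 was -0.01, and that of all genes tested was 0.01. Summed over the 35, the level was 7578 and 7592 CPM in the Mock libraries and 7309 and 7379 CPM in the uniSTING libraries, so that both uniSTING libraries were lower and the mean differed by -3.18%. Without the 6 genes above, the mean differed by -1.10%, from 6623 CPM in Mock to 6551 CPM in uniSTING. Top2a, among the other 29, went from a mean of 1205 to 1107 CPM, a larger drop than that of their sum. With only Top2a left out, the summed mean of the 34 genes differed by -2.23%. In bulk RNA, fewer cells in G2 or mitosis and less of a transcript per cell cannot be told apart.

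**Figure D2:**
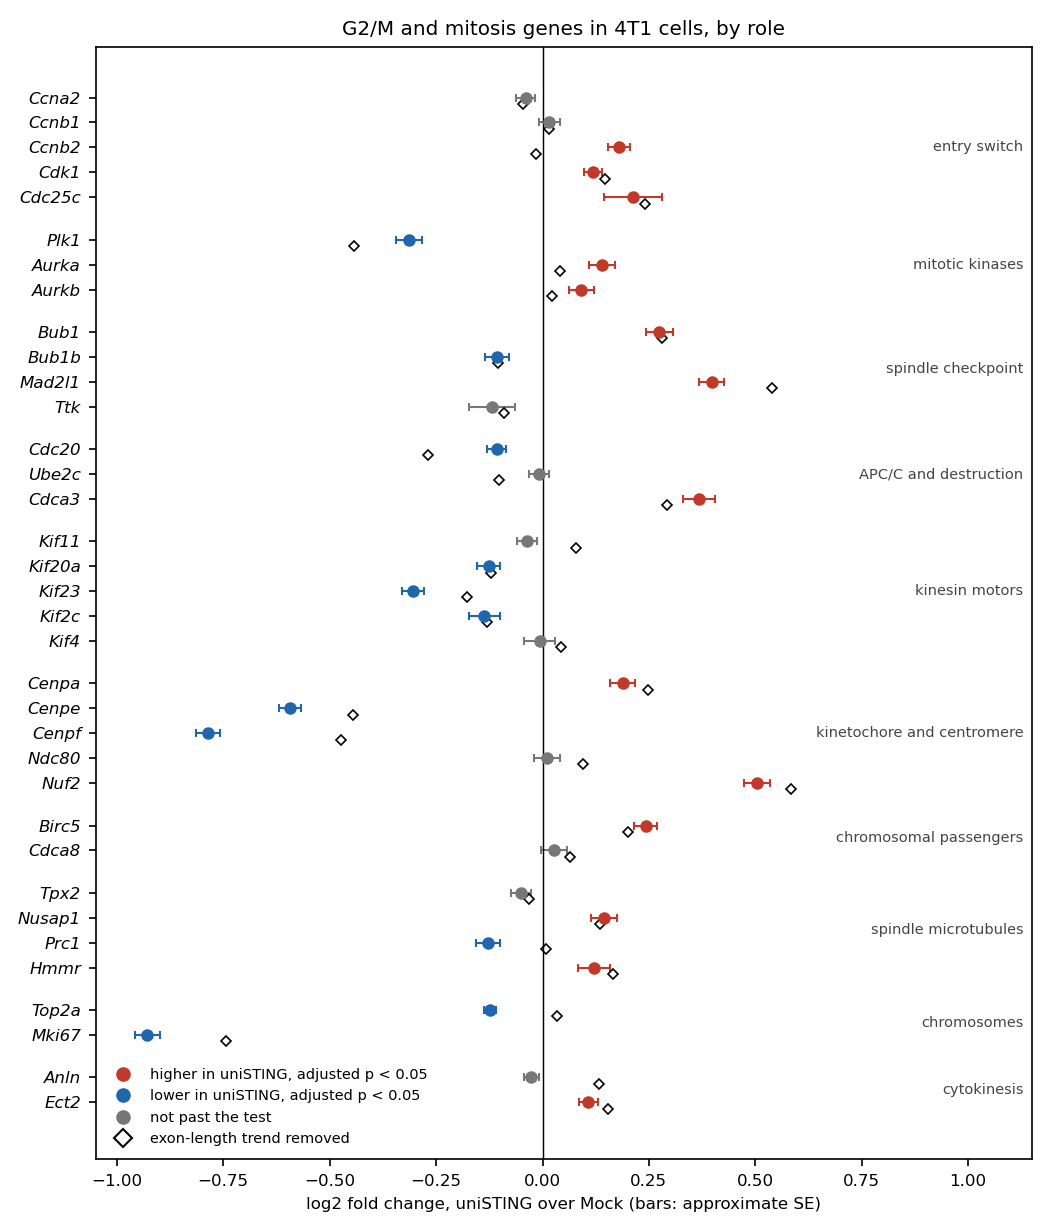
Log2 fold change of uniSTING over Mock for each of the 35 genes, grouped by role; filled points are the edgeR estimates, coloured by whether the gene was higher, lower or did not pass the test, bars are approximate standard errors, and open diamonds are the values with the trend on exon length removed. Mki67, Cenpf and Cenpe stand apart at the left, at -0.93, -0.79 and -0.59, and Nuf2 at the right, at 0.50.

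The genes of the switch into mitosis changed little. Ccnb1 encodes cyclin B1, the main partner of Cdk1, and had 223 and 226 CPM in the Mock libraries and 230 and 225 CPM in the uniSTING libraries. The groups overlapped, with a log2 fold change of 0.02 ± 0.02 (standard error) and an adjusted p of 0.614. Cdk1 itself had 281 and 285 CPM in Mock and 304 and 309 CPM in uniSTING. Both uniSTING libraries were higher, and the rise of 0.12 ± 0.02 passed (adjusted p = 9.24e-04), but not once a trend on coding length was removed (0.03, adjusted p = 0.298). Ccnb2, which encodes cyclin B2, rose by 0.18, but its fold change was -0.02 once a trend of counts with exon length was removed. Cdc25c, which encodes a phosphatase that activates Cdk1, had the lowest level per exon length of the 35 in Mock, 6.35 CPM per kb, and rose by 0.21 ± 0.07 (adjusted p = 0.0230). DESeq2 did not call it (adjusted p = 0.108), nor did edgeR when Mock replicate 1 (adjusted p = 0.145) or uniSTING replicate 1 (adjusted p = 0.0975) was left out. Ccna2, for cyclin A2, which acts in S phase and early mitosis, was at -0.04 and did not pass (adjusted p = 0.163), and with uniSTING replicate 2 left out it did (adjusted p = 0.0230).

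The 3 mitotic kinases did not move together. Plk1, the Polo kinase that matures centrosomes and feeds back on Cdk1, had 156 and 159 CPM in Mock and 124 and 129 CPM in uniSTING. The groups were far apart, with a fall by 0.31 ± 0.03 on the log2 scale (adjusted p = 7.93e-06). Aurka, the Aurora kinase of centrosomes and spindle poles, rose by 0.14, and Aurkb, the Aurora kinase of the chromosomal passenger complex, rose by 0.09 (adjusted p = 0.0240). With the exon length trend removed neither Aurora gene passed, at 0.04 and 0.02. Aurkb did not pass in DESeq2 either (adjusted p = 0.228). Leaving out Mock replicate 1, Mock replicate 2 or uniSTING replicate 2 gave it an adjusted p of 0.0984, 0.110 and 0.176.

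Among the checkpoint genes Mad2l1 rose most. It encodes Mad2, the protein that holds Cdc20 inactive while chromosomes are unattached, and had 153 and 147 CPM in Mock and 195 and 200 CPM in uniSTING. Both uniSTING libraries were above both Mock libraries, at a rise of 0.40 ± 0.03 (1.32-fold, adjusted p = 1.07e-06). Bub1, the kinase that recruits checkpoint proteins to kinetochores, had 139 and 133 CPM in Mock and 161 and 167 CPM in uniSTING. It rose by 0.27 ± 0.03 (adjusted p = 2.80e-05), again with no overlap. Its relative Bub1b, for the inhibitor BubR1, fell by 0.11 (adjusted p = 0.00828), which DESeq2 did not call (adjusted p = 0.0565), in a direction that turned to 0.10 once a trend on coding length was removed. Ttk, for the kinase Mps1 that starts checkpoint signalling, was at -0.12 and did not pass (adjusted p = 0.0910), whereas without uniSTING replicate 1 it was at -0.18 and passed (adjusted p = 0.00603).

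Cdc20, the activator of the APC/C that Mad2 restrains, had 249.7 and 253 CPM in Mock and 234 and 233 CPM in uniSTING. Both uniSTING libraries were lower, and the fall by 0.11 ± 0.02 passed (adjusted p = 0.00223). Per kb of exon it had the highest Mock level of the 35, 135 CPM per kb, next to Top2a at 134 CPM per kb. Ube2c, the ubiquitin-conjugating enzyme of the APC/C, had 217 and 216 CPM in Mock and 213 and 217 CPM in uniSTING. The groups overlapped (log2 fold change -0.01 ± 0.02, adjusted p = 0.785), and with the exon length trend removed the gene passed, at -0.10 (adjusted p = 0.00575). Cdca3, which takes part in the destruction of the Cdk1 inhibitor Wee1, had 64.6 and 67.6 CPM in Mock and 85.3 and 85.5 CPM in uniSTING, a rise of 0.37 ± 0.04 (1.29-fold, adjusted p = 1.33e-05) with no overlap.

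The kinetochore and centromere genes held large changes in both directions. Cenpf encodes a very large coiled-coil protein of the outer kinetochore and nuclear matrix, and had 163 and 164 CPM in Mock and 93.8 and 95.5 CPM in uniSTING. Cenpe, the kinesin that carries chromosomes to the spindle equator, had 185 and 185 CPM in Mock and 123 and 123 CPM in uniSTING. Both genes were lower in both uniSTING libraries by far more than the libraries of a group differed. Cenpf fell by 0.79 ± 0.03 (1.72-fold, adjusted p = 4.55e-09) and Cenpe by 0.59 ± 0.03 (1.51-fold, adjusted p = 1.79e-08). In the opposite direction, Nuf2 had 93.9 and 96.1 CPM in Mock and 137 and 133 CPM in uniSTING. This rise of 0.50 ± 0.03 (1.42-fold, adjusted p = 2.44e-07) was the largest among the 35.

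Nuf2 and Ndc80 encode partners that form a heterodimer, the microtubule-binding arm of the NDC80 complex, and their transcripts parted. Ndc80 had 89.3 and 89.4 CPM in Mock and 89.9 and 90.1 CPM in uniSTING. These values were nearly the same in all 4 libraries, at a log2 fold change of 0.01 ± 0.03 that did not pass (adjusted p = 0.811). With the exon length trend removed Ndc80 passed as a rise of 0.09 (adjusted p = 0.0309). The level per kb of exon was nearly the same for both genes in Mock, 13.8 CPM per kb for Ndc80 and 15.0 CPM per kb for Nuf2. Cenpa, the histone variant that marks the centromere, rose by 0.19 (adjusted p = 2.50e-04), and with a trend on coding length removed its value was -0.06 and did not pass.

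Of the chromosomal passengers besides Aurkb, Birc5 (survivin) had 171 and 166 CPM in Mock and 197 and 202 CPM in uniSTING and rose by 0.24 ± 0.03 (adjusted p = 2.38e-05). Its value was 0.20 with the exon length trend removed and 0.00 with the coding length trend removed, where it no longer passed (adjusted p = 0.925). Cdca8 (borealin) was at 0.03 and did not pass (adjusted p = 0.507). With the mRNA length trend removed Cdca8 passed as lower, at -0.15 (adjusted p = 0.00340).

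Of the 5 kinesin motors listed apart from Cenpe, 3 fell, none rose and 2 did not pass. Among tested genes within the range of levels of the mitotic genes, 38.9% were lower and 30.0% higher. Whether the split of these 5 motors differs from those shares was not tested. Kif23, the kinesin of the centralspindlin complex that builds the midzone and midbody, had 194 and 188 CPM in Mock and 155 and 154 CPM in uniSTING. Its groups were far apart, with a fall by 0.30 ± 0.03 (adjusted p = 3.62e-06). Kif20a, another motor of cytokinesis, fell by 0.13, and the microtubule depolymerase Kif2c fell by 0.14. Kif2c did not pass in DESeq2 (adjusted p = 0.0959), and leaving out Mock replicate 2 or uniSTING replicate 1 raised its adjusted p in edgeR to 0.125 and 0.0610. With the coding length trend removed Kif20a turned to 0.02 and Kif2c was at -0.06, and neither passed (edgeR adjusted p = 0.661 and 0.234). The values of Kif11, the motor that pushes spindle poles apart, and of the chromosome-bound Kif4 were -0.04 and -0.01 and did not pass (adjusted p = 0.205 and 0.918). With the coding length trend removed both passed in the other direction, at 0.17 and 0.25.

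The spindle microtubule genes moved little. Nusap1, which bundles microtubules near chromosomes, rose by 0.14, which did not pass with length and GC trends removed (0.03, adjusted p = 0.514). Hmmr, which ties microtubules to spindle poles, rose by 0.12 (adjusted p = 0.0213). Hmmr did not pass in DESeq2 (adjusted p = 0.118), nor in edgeR with Mock replicate 2 (adjusted p = 0.254) or uniSTING replicate 2 (adjusted p = 0.0790) left out. Prc1, which bundles the antiparallel microtubules of the midzone, fell by 0.13. With the exon length trend removed it turned to a rise of 0.01 that did not pass (adjusted p = 0.862). Tpx2, the activator of Aurora A on the spindle, was at -0.05 and did not pass (adjusted p = 0.0995).

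Mki67 showed the largest change of the 35. It encodes Ki-67, the long protein that coats mitotic chromosomes and keeps them from sticking together, and is the marker most used to count proliferating cells. Its level was 305 and 299.5 CPM in the Mock libraries and 153 and 163 CPM in the uniSTING libraries. Both uniSTING libraries were far below both Mock libraries, a fall by 0.93 ± 0.03 on the log2 scale (1.90-fold, adjusted p = 2.59e-09). Top2a, the topoisomerase that untangles sister chromatids and the most counted of the 35 genes, had 1206 and 1205 CPM in Mock and 1104 and 1109 CPM in uniSTING. Top2a fell by 0.12 ± 0.01 (adjusted p = 1.98e-05). With the exon length trend removed it turned to a rise of 0.03 that did not pass (adjusted p = 0.0737). With the coding length trend removed it was a rise of 0.22 that passed (adjusted p = 3.94e-07). With length and GC trends removed it stayed lower, at -0.05, and passed (adjusted p = 0.0156).

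Of the cytokinesis genes, Ect2, the exchange factor that activates RhoA at the cell equator, had 371 and 376 CPM in Mock and 410.0 and 396 CPM in uniSTING. Both uniSTING libraries were higher, at a rise of 0.11 ± 0.02 (adjusted p = 0.00190) that no longer passed with length and GC trends removed (adjusted p = 0.607). Anln, the scaffold anillin of the contractile ring, had 719 and 739.5 CPM in Mock and 717 and 716 CPM in uniSTING. Its value was -0.03 and did not pass (adjusted p = 0.247), and with the exon length trend removed it passed as a rise of 0.13 (adjusted p = 1.73e-04).

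**Figure D3:**
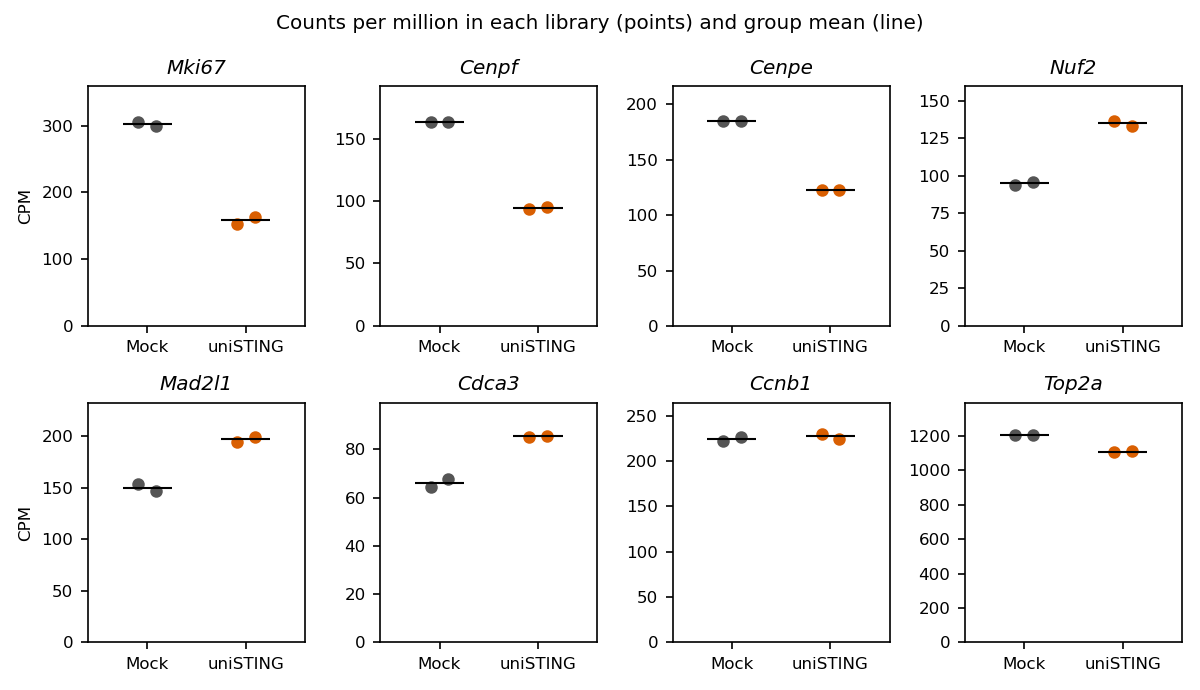
CPM in each of the 4 libraries (points) and the mean of each group (line) for the 6 genes that changed by at least 1.25-fold and for Ccnb1 and Top2a; the vertical axis is CPM from 0. The points of Mki67 fall from 305 and 299.5 CPM to 153 and 163 CPM and those of Nuf2 rise from 93.9 and 96.1 CPM to 137 and 133 CPM, and within a group the points nearly coincide.

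In the GRCm39 coordinates of the count tables the 3 genes that fell most are Mki67 (ENSMUSG00000031004) at chr7:135291513-135318090 on the minus strand, Cenpf (ENSMUSG00000026605) at chr1:189372803-189420283 on the minus strand and Cenpe (ENSMUSG00000045328) at chr3:134918298-134979372 on the plus strand. The 3 that rose most are Nuf2 (ENSMUSG00000026683) at chr1:169325503-169359033 on the minus strand, Mad2l1 (ENSMUSG00000029910) at chr6:66512374-66524204 on the plus strand and Cdca3 (ENSMUSG00000023505) at chr6:124806510-124810664 on the plus strand. Counting did not use strand, and 11 of the 35 share exon bases with another annotated gene. Reads on the shared bases cannot be assigned to a single gene by position, and whether they were counted for either gene was not tested. The widest overlaps are those of Kif20a with Cdc23 (29.3% of its exon bases), Ube2c with Tnnc2 (22.8%, Tnnc2 having no count in any library) and Kif4 with Pdzd11 (15.1%). None of the 6 genes that changed by at least 1.25-fold is among the 11.

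The 3 genes that fell most also have the longest coding sequences of the 35: 9.53 kb for Mki67, 8.99 kb for Cenpf and 7.41 kb for Cenpe. Over all genes tested, the longer a gene was, the lower it tended to be in uniSTING relative to Mock. Across genes, which are not independent replicates and here share the same 4 libraries, Spearman's rho of log2 fold change with exon length was -0.36, and with coding length it was -0.45 over 11352 genes. In the 35 it was -0.29 and -0.63. Without the 3 longest it was -0.51 with coding length over 32 genes. Over the tested genes within the same range of levels, rho with coding length was -0.62.

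The trends were removed by giving each library an offset fitted over all tested genes with a known length, for coding length the 11352 with a coding sequence. With the trend on exon length (all exon bases of the gene, as in the count tables) removed, Mki67 was at -0.74 ± 0.03, Cenpf at -0.47 ± 0.03 and Cenpe at -0.45 ± 0.03, and all 3 passed. With the trend on coding length removed, a choice made after seeing the data, Mki67 was at -0.29 ± 0.03 (adjusted p = 4.37e-05) and Cenpf at -0.17 ± 0.03 (adjusted p = 7.43e-04). Cenpe was then at -0.05 ± 0.03 and no longer passed (adjusted p = 0.120). The trend itself at the coding lengths of Mki67, Cenpf and Cenpe was -0.64, -0.62 and -0.54. At their exon lengths it was only -0.18, -0.31 and -0.14. How much of each fall lay on the line thus depended on the length used. The cause of the trends was not tested.

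The rises of short coding genes depended on length to different degrees. Nuf2 was at 0.58 with the exon length trend and 0.50 with the coding length trend removed, so that its rise was as large with the latter as without. Mad2l1 was at 0.54 and 0.24, and Cdca3 at 0.29 and 0.26. Bub1, with a coding sequence of 3.18 kb, was at 0.28 and 0.48. Plk1 stayed lower, at -0.44 and -0.26, and so did Kif23, at -0.18 and -0.14. Over the 35, 14 were higher and 10 lower with the exon length trend removed (against 23.4% and 22.2% of all genes tested), at a median of 0.03. With the coding length trend removed 15 were higher and 7 lower (against 22.7% and 20.0%), at a median of 0.03. With the trend on mRNA length removed, also chosen after seeing the data, 11 were higher and 10 lower (against 22.0% and 20.9%), at a median of 0.01. With exon length and GC content removed together 8 were higher and 12 lower (against 21.9% and 21.5%), at a median of -0.01.

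**Figure D4:**
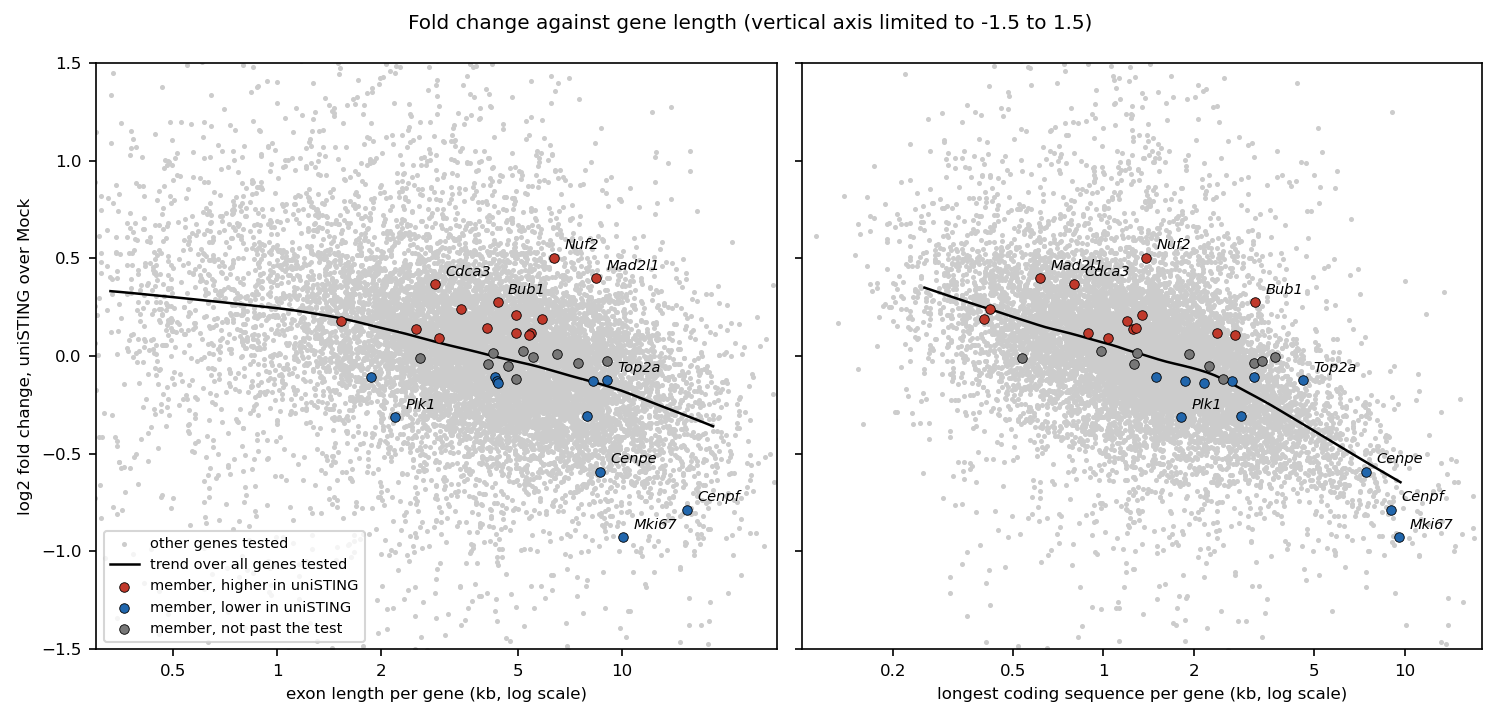
Log2 fold change of uniSTING over Mock against exon length (left) and coding length (right), both in kb on a log axis; grey points are the other genes tested, the line is the trend over all genes tested, and coloured points are the 35 genes by their call. Mki67, Cenpf and Cenpe lie at the long end, where the line is at -0.64, -0.62 and -0.54 for coding length. For exon length the line is at -0.18, -0.31 and -0.14, and Nuf2 lies above the line in both panels. The points and line for coding length cover only genes with a coding sequence.

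Over 16 alternative settings of scaling, filter, tool, length correction, block and left-out library, 9 of the 25 genes that passed did so in the same direction in every one: Bub1, Mad2l1, Cdca3 and Nuf2 as higher, and Plk1, Cdc20, Kif23, Cenpf and Mki67 as lower. Of the 10 that did not pass, 0 had the same direction and no call in all 16. How many of all genes tested kept their call in all 16 was not counted, so the 9 have no background share beside them.

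Genes with the CHR letters were found on either side, and of the matched genes without them only Cenpe fell. Of the 24 genes whose window held TTTGAA or TTCGAA, 8 rose, 9 fell and 7 did not pass, at a median log2 fold change of -0.02. These 70.8% called stand beside 50.2% of all genes tested, of which 24.9% rose and 25.4% fell. Among tested genes within the range of levels of the mitotic genes the share was 68.9%, with 30.0% higher and 38.9% lower. Of the 6 matched genes without CHR letters 4 rose, 1 fell and 1 did not pass (83.3% called), at a median of 0.19. With the coding length trend removed, 3 of the 6 were higher and 0 lower, and 11 of the 24 were higher and 6 lower. The sequences of Mki67, Cdk1, Cdc20 and Ube2c printed above, each with both kinds of match, belong to genes at -0.93, 0.12, -0.11 and -0.01. The 4 genes with none of the letters in their window, Nuf2, Mad2l1, Birc5 and Nusap1, all rose, by 0.50, 0.40, 0.24 and 0.14. These 4 were singled out after their values were seen, and no test was made of the difference.

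Genes of the same machinery outside the 35 were taken from 8 lists. Of these, 109 of 110 were tested, and 34 rose, 33 fell and 42 did not pass, at a median of 0.02. The 61.5% that passed lie between the 50.2% of all genes tested and the 68.9% of those within the range of levels of the mitotic genes. The counts of each list are to be read against the 24.9% higher and 25.4% lower of all genes tested. Condensin genes, whose products compact chromosomes, had 2 of 8 higher and 3 lower (62.5% called) at a median of -0.05, with Smc2 up by 0.13 and Ncapd2 lower at -0.34. Smc2 did not pass with length and GC trends removed (adjusted p = 0.366). Ncapd2 no longer passed with the coding length trend removed, at -0.03, and Ncapd3, lower at -0.20, turned to 0.14. Ncaph2 rose by 0.08, but not in DESeq2 (adjusted p = 0.162), nor in edgeR with Mock replicate 1 (adjusted p = 0.208) or uniSTING replicate 2 (adjusted p = 0.128) left out. Cohesin and separase genes, which tie and release sister chromatids, had 1 of 12 higher and 6 lower (58.3% called) at a median of -0.08. Smc1a was at -0.51, and Espl1, the separase that cuts cohesin, had 103.2 and 106 CPM in Mock and 68.3 and 70.1 CPM in uniSTING (log2 fold change -0.60, edgeR adjusted p = 1.65e-07). Pttg1, the securin that holds separase in check, rose by 0.27, which was 0.11 with the coding length trend removed (Espl1 was then at -0.12). Pttg1 did not pass with length and GC trends removed (adjusted p = 0.0650).

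Genes of the APC/C core and its regulators had 9 of 17 higher and 4 lower, at a median of 0.11 (76.5% called, against 50.2% of all genes tested). The small subunit gene Anapc13 rose by 0.68, from 9.76 and 9.73 CPM to 15.6 and 15.5 CPM. With the coding length trend removed its rise was 0.30 and still passed (edgeR adjusted p = 0.0176). The gene of the largest subunit, Anapc1, was lower at -0.42, and this turned to 0.03 and did not pass with the coding length trend removed. Ube2s, which extends ubiquitin chains for the complex, rose by 0.20, and Anapc5 was lower at -0.14, which did not pass with length and GC trends removed (adjusted p = 0.172). Other kinetochore genes had 8 of 27 higher and 3 lower at a median of 0.03 (40.7% called). Cenpi, of the inner kinetochore, had 49.2 and 49.4 CPM in Mock and 69.7 and 69.2 CPM in uniSTING. It rose by 0.49, and Zwint, an outer kinetochore protein gene, by 0.35. Knl1, the long scaffold that docks Bub1, was at -0.27 and turned to 0.21 with the coding length trend removed, and Cenpt was at -0.23. Incenp, the scaffold of the passenger complex, was at 0.02 and did not pass (adjusted p = 0.543). It passed as a rise of 0.16 with the coding length trend removed (adjusted p = 2.62e-04). With length and GC trends removed it passed as a rise of 0.07 (adjusted p = 0.0199).

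Other mitotic kinesin genes had 1 of 7 higher and 5 lower (85.7% called, against 50.2% of all genes tested) at a median of -0.13. Kif18a, which damps chromosome oscillation, rose by 0.28, while its relative Kif18b was lower at -0.30 and Kif15 at -0.28. Kif15 was at -0.07 with the exon length trend removed and did not pass. Other cytokinesis genes had 2 of 6 higher, 1 lower and 3 that did not pass, at a median of 0.09. The lower gene, Cit, for the citron kinase of the midbody, had 56.1 and 56.2 CPM in Mock and 34.5 and 33.8 CPM in uniSTING (log2 fold change -0.72, edgeR adjusted p = 1.93e-06). Cit was at -0.25 with the coding length trend removed. The rises were those of the midbody protein gene Cep55, by 0.30, and of the membrane-cutting ESCRT gene Chmp4b, by 0.21. Chmp4b did not pass with the exon length trend removed (0.06, adjusted p = 0.167).

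The genes of the factors that switch mitotic transcription on and off were split as well. Of the MuvB, DREAM and FOXM1 list, 13 of 14 were tested (Lin54 was not used here), and 5 rose and 5 fell (76.9% called, against 50.2% of all genes tested) at a median of 0.06. Foxm1, the activator of late cell cycle genes, had 185 and 185 CPM in Mock and 144 and 150.2 CPM in uniSTING. Both uniSTING libraries were lower, at a fall by 0.33 ± 0.03 (adjusted p = 3.07e-06) that was -0.27 and -0.24 with the exon and coding length trends removed. Mybl2, for the MYB protein that joins MuvB, was lower at -0.19, as was E2f4, the E2F of the repressor complex, at -0.19. The genes of the MuvB subunit Lin37 and of the pocket protein p107, Rbl1, rose by 0.72 and 0.18. Lin37 was low, at 6.30 and 6.70 CPM in Mock and 9.61 and 11.7 CPM in uniSTING.

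Among kinases, phosphatases and brakes of mitotic entry, 6 of 19 rose and 6 fell (63.2% called) at a median of 0.05. Wee1 and Pkmyt1, whose kinases hold Cdk1 inactive, were lower at -0.28 and -0.19. Pkmyt1 did not pass in DESeq2 (adjusted p = 0.0839), nor in edgeR once Mock replicate 2 was left out (adjusted p = 0.0886). The activating phosphatase gene Cdc25b (0.05, adjusted p = 0.232) and the p21 gene Cdkn1a (0.07, adjusted p = 0.577) did not pass. With the coding length trend removed Cdc25b passed as a rise of 0.10 (adjusted p = 0.0388). Cdkn1b, for the inhibitor p27, rose by 0.20, and was at 0.04 and did not pass with the coding length trend removed. Ccng2, for cyclin G2, a cyclin found mostly in cells that leave the cycle, had 36.3 and 35.7 CPM in Mock and 61.1 and 60.6 CPM in uniSTING. The groups were far apart, at a rise of 0.76 ± 0.05 (adjusted p = 8.50e-07) that was 0.80 and 0.70 with the exon and coding length trends removed. The centrosome kinase gene Nek2 was lower at -0.22.

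Of the DNA replication and G1/S list, the nearest in the cell cycle, 15 of 36 rose and 11 fell, at a median of 0.05. The 72.2% that passed, like the 71.4% of the mitotic genes, are near the 68.9% of all tested genes within the range of mitotic gene levels. Tyms and Tk1, enzymes of thymidine supply, rose by 0.33 and 0.24. Uhrf1, which maintains DNA methylation behind the fork, and Pole, the catalytic subunit of a replicative polymerase, were lower at -0.34 and -0.59. Pole, with a coding sequence of 6.85 kb, was at -0.08 and did not pass (adjusted p = 0.0509) with the coding length trend removed. The difference between this list and the mitotic genes was not tested.

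**Figure D5:**
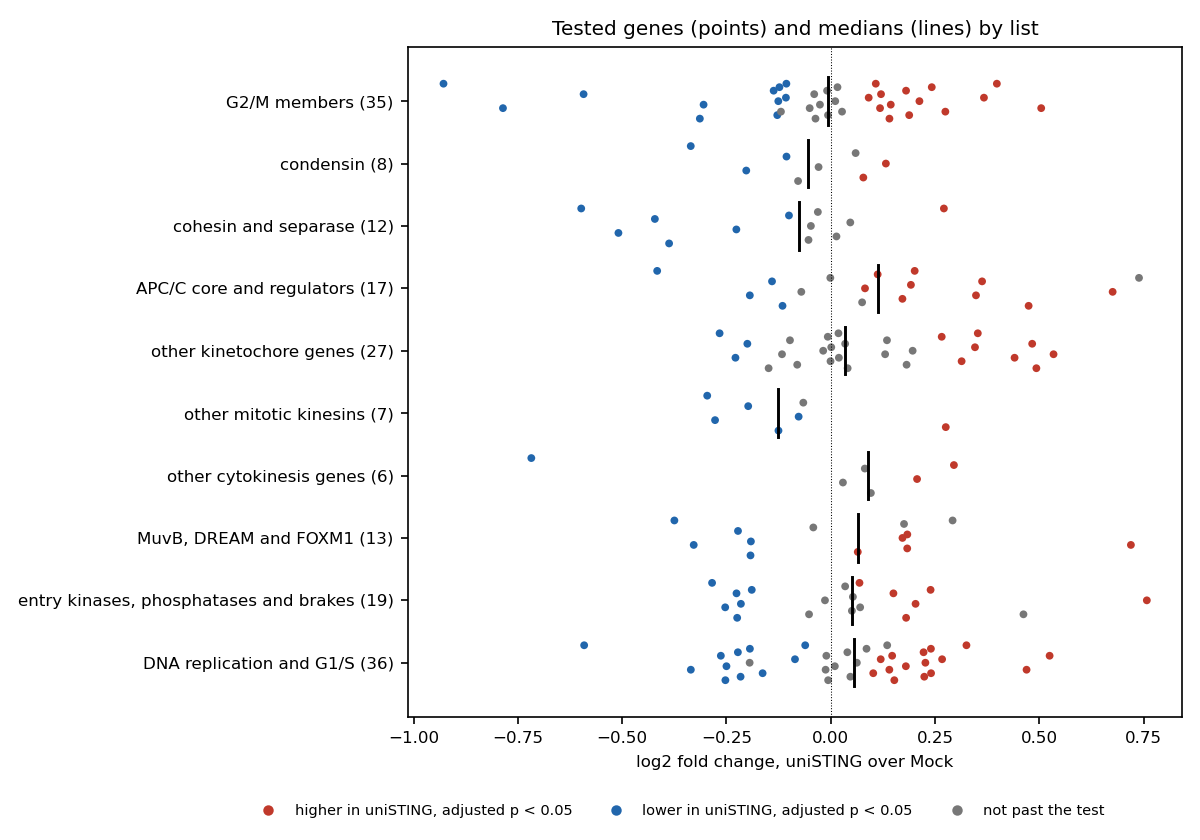
Log2 fold change of uniSTING over Mock for the tested genes of each list (points, coloured by call) with the list's median (line); the number tested is given beside each name. The medians run from -0.13 for the other mitotic kinesins to 0.11 for the APC/C list, and every list holds points on both sides of 0.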

How the data were processed

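RNA was sequenced from 4 samples of 4T1 cells, and libraries were made from total RNA with an NEBNext Ultra kit, per the labels' protocols, which do not say whether RNA was selected or strand marked. The authors deposited a table of raw counts for each sample. Per the file headers, featureCounts 2.0.1 counted uniquely mapped reads over exons in paired-end mode, with no strand option, on Ensembl 103 (GRCm39). The submitters' processing notes name HISAT2 as the aligner, with no version. Reads on bases shared by overlapping genes cannot be assigned to a single gene by position.

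Symbols matched 52093 of 53647 gene identifiers, and 32115 genes had no count. Counts were tested with edgeR 4.0.16 (R 4.3.3): TMM scaling, the default filter by group (minimum count 10, minimum total 15), a quasi-likelihood fit by group and a threshold of 0.05 on p-values adjusted by Benjamini-Hochberg over 12972 genes. The common coefficient of variation was 3.15%. Standard errors were derived from the F statistic and are approximate. CPM are counts scaled to the TMM-adjusted library size by edgeR. With 2 libraries against 2 a permutation test of a single value cannot go below p = 0.333 (two-sided), so none was used. Length and GC trends were fitted per library over all tested genes with a known value (lowess, span 0.3, prior count 2) and entered as offsets. For coding length these were the 11352 genes with a coding sequence. Tested genes without one had no such offset, and the shares of all genes tested include them. Exon lengths are those of the count tables; mRNA and coding lengths and GC content came from GENCODE M21 by gene identifier.

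The members, lists and tests were chosen with earlier results of these data known; the rule for the members names genes and uses no measured value. From each list the 2 genes with the smallest p among those that passed in each direction are named, and also Foxm1, Mybl2, Wee1, Pkmyt1, Cdc25b, Cdkn1a, Pttg1 and Incenp. Alternatives were other scalings and filters, DESeq2 1.42.0, limma-voom (limma 3.58.1), the replicate number as a block, removal of length trends and leaving out each library; the trends on mRNA and coding length were added after seeing the data. The fits were tested on simulated counts. A leukocyte marker of the list is not reported here.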

Additional observations from a re-analysis of the deposited data

How the results depend on the processing

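With 2 libraries a group whose independence is not stated, p-values can only reflect how those libraries differ. Each of the 35 genes had at least 540 counts in every library. The counts of 14 higher and 11 lower genes moved by over 1.5 times in 2 cases, to 8 higher with length and GC trends removed and 7 lower with the coding length trend removed; the cause was not tested. Which genes were called changed more: DESeq2 lost 5 calls, and removal of the mRNA length trend lost 8 and turned 1. Over all genes DESeq2 also called fewer, 2159 higher and 2358 lower, against 3225 and 3290 in the main fit. Removal of the coding length trend lost 6 and turned 4, and removal of length and GC trends lost 7 and turned 1. The median of the 35 (-0.0066) was 0.023 with upper quartile scaling, 0.034 with the exon length trend removed (0.034 with the block as well), 0.011 with the mRNA length trend and 0.030 with the coding length trend removed. Leaving out each library in turn gave medians from -0.028 to 0.0083 (without uniSTING replicate 2 and without uniSTING replicate 1), 12 to 13 genes higher and 10 to 12 lower.

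The labels do not say what same-numbered libraries of the 2 groups have in common. Deviations of same-numbered libraries from their group means correlated at 0.661 across 10836 genes. Replicates 1 and 2 thus differed in a similar way in both groups, and the cause was not tested. The main fit had no block for it. With the replicate number as a block, 14 of the 35 were higher and 11 lower, 3374 and 3403 of all genes, and no call among the 35 changed.

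Directions turned as follows (log2 fold changes). Without the exon length trend: Ccnb2 -0.016, Kif11 0.078, Kif4 0.043, Prc1 0.0073, Top2a 0.034 and Anln 0.13, and with the block as well Ccnb2 -0.016, Kif11 0.078, Kif4 0.042, Prc1 0.0069, Top2a 0.034 and Anln 0.13. Without length and GC trends: Ccnb1 -0.050, Ccnb2 -0.013, Kif4 0.035, Ndc80 -0.0048 and Anln 0.086. Without the mRNA length trend: Ccnb1 -0.013, Kif11 0.091, Kif4 0.13, Ndc80 -0.044, Cdca8 -0.15, Tpx2 0.046, Top2a 0.035, Anln 0.086, Ube2s -0.00011 and Knl1 0.054. Without the coding length trend: Bub1b 0.096, Kif11 0.17, Kif20a 0.016, Kif4 0.25, Cenpa -0.059, Cdca8 -0.044, Tpx2 0.038, Top2a 0.22, Anln 0.20, Ncapd3 0.14, Anapc1 0.026, Knl1 0.21, Kif15 0.030 and Cdkn1a -0.14. With upper quartile scaling: Ube2c 0.021, Kif4 0.023 and Anln 0.0040. With each library left out in turn the ranges spanned 0: Ccnb1 -0.0038 to 0.028 and Incenp -0.0029 to 0.031 (turned without Mock replicate 1), Cdkn1a -0.022 to 0.15 (without Mock replicate 2), Ube2c -0.028 to 0.0083 and Kif4 -0.042 to 0.023 (without uniSTING replicate 1), and Cdca8 -0.0018 to 0.052 (without uniSTING replicate 2). Of these, Bub1b, Ccnb2, Kif20a, Cenpa, Prc1, Top2a, Ube2s, Knl1, Ncapd3, Anapc1 and Kif15 had passed the test.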
